A study of Mus musculus with 6 samples.

Results

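Aminoacyl-tRNA synthetases, the enzymes that load each tRNA with its amino acid, were followed in C2C12 cells, a mouse line of myoblasts that fuse into myotubes when serum is lowered. The members are the 38 genes whose symbols follow the family's naming pattern (an amino acid letter followed by "ars", with Eprs, Farsa, Farsb and Tarsl2), out of 27179 genes in the count table. They comprise 19 genes of cytosolic enzymes, 17 genes of mitochondrial enzymes, whose symbols end in 2, and Gars and Kars, each of which encodes the cytosolic and the mitochondrial form from 1 gene. Tarsl2 ends in 2 but encodes a threonyl-tRNA synthetase of the cytosol and was counted there. All 38 passed the filter on low counts.

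A synthetase activates its amino acid with ATP and transfers it to the matching tRNA, so that the ribosome reads the code correctly. Cytosol and mitochondria each need a full set, and in animals most amino acids have a separate nuclear gene for each compartment. Part of the cytosolic enzymes sit in a large complex held together by scaffold proteins. Many cytosolic synthetase genes are known targets of ATF4, the transcription factor of the integrated stress response, which is raised when amino acids are short or protein folding is disturbed.

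The 3 myoblast libraries came from C2C12 cells kept below confluence in high glucose medium with 10% fetal bovine serum and 4 mM glutamine. The 3 myotube libraries came from C2C12 cells grown at 100% confluence for 3 days, then given medium with 2% horse serum, 4 mM glutamine, insulin, transferrin, selenium and ethanolamine for 5 days. Serum, supplements, cell density, time and differentiation therefore differ together and cannot be told apart. All samples are of 1 cell line. Libraries were harvested in triplicate with no mention of separate cultures. The p-values therefore reflect how these libraries vary among themselves, and that variation may be technical.

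Library totals ranged from 10076945 to 11723881 counts in myoblasts and from 7370169 to 8339589 in myotubes. Of 7 myotube markers, 7 rose in the myotube libraries, and their summed level went from 72.2 to 91.1 CPM (counts per 1000000 counts of scaled library size) in myoblasts to 13600 to 14200 CPM in myotubes. Of 7 markers of proliferating myoblasts 6 fell, while the muscle intermediate filament gene Des rose. Their sum, in which Des weighs most, was 2960 to 3040 CPM in myoblasts and 2970 to 3060 CPM in myotubes. The cell cycle genes Mki67, Top2a, Ccnb1 and Cdk1 fell by 2.84 to 4.03 on the log2 scale, but the myogenic factors Myod1 and Myf5 by only 0.16 and 0.13, with overlapping groups for Myf5. Adipocyte markers summed to at most 0.143 CPM in any library, macrophage markers to at most 2.65 CPM and endothelial markers to at most 0.379 CPM. Adipoq and Cfd, defining adipocyte genes, were at 0 in every library. Osteoblast markers summed to 80.4 to 84.4 CPM in myoblasts and 38.4 to 41.8 CPM in myotubes. Nearly all of this was Runx2, which fell from a mean of 81.6 to 39.9 CPM. In no library did Sp7 exceed 0.848 CPM or Bglap 0.253 CPM, and Ibsp had no counts. The 3 markers of undifferentiated or reserve cells summed to 129 to 138 CPM in myoblasts and 271 to 299 CPM in myotubes, where Cd34 and Heyl rose and Pax7 was not called. The part of these cells and of the fall in proliferation in the synthetase values was not tested. In such bulk samples fewer cells of a type and less RNA per cell cannot be told apart.

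Most cytosolic synthetase genes were higher in myotubes, while the mitochondrial ones were split. The quasi-likelihood test of edgeR was run on 12800 genes, with p-values adjusted by Benjamini-Hochberg and called under 0.05. In it 14 of 19 cytosolic genes rose, 3 fell and 2 were not called. Gars and Kars both rose. Of 17 mitochondrial genes 6 rose, 8 fell and 3 were not called. Among all genes tested 40.2% rose and 39.2% fell, 79.5% in all. The median log2 change of myotubes over myoblasts was 0.57 for the cytosolic genes and −0.04 for the mitochondrial genes, against 0.02 for all genes tested. For 33 of the 38 members the library ranges were separate, 22 with all myotube libraries higher and 11 with all lower. Among all genes tested 80.5% were separate in this way, 40.6% higher and 39.9% lower.

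**Figure D1:**
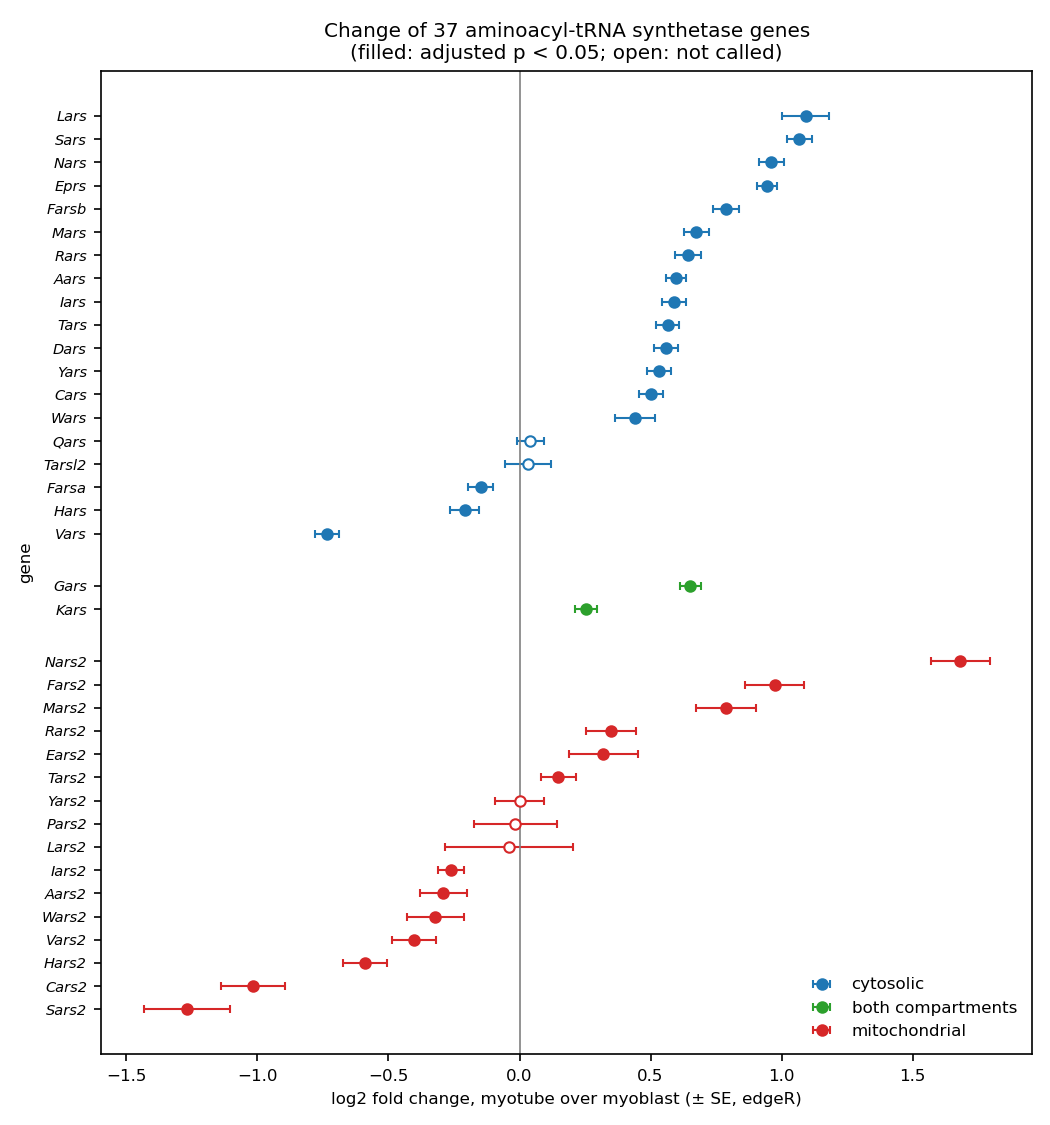
Log2 fold change of 37 of the 38 synthetase genes, myotube over myoblast, with its standard error from edgeR, grouped by compartment. Filled points passed an adjusted p of 0.05. The cytosolic points lie mostly right of 0, from −0.74 (Vars) to 1.09 (Lars), and the mitochondrial points spread from −1.27 (Sars2) to 1.68 (Nars2).

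These directions depend on how libraries are scaled only for small changes. Counts were scaled by TMM, which corrects for a few very abundant genes. Scaling by total counts moved the median of all genes by −0.15 on the log2 scale. Under this scaling 4269 of all 12800 genes tested rose and 5935 fell. With it the 14 cytosolic rises and 3 falls stood and 8 mitochondrial genes still fell. The number of mitochondrial genes that rose went from 6 to 3, as Rars2 (adjusted p = 0.0546), Ears2 (adjusted p = 0.233) and Tars2 (adjusted p = 0.991) lost their calls in edgeR. The difference between the mitochondrial and the cytosolic median was −0.61 under both scalings. A change of scaling shifts all genes by nearly the same amount, so this difference could hardly move and is no test of the scaling.

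The largest cytosolic increase was that of Lars, the leucyl-tRNA synthetase, which also takes part in leucine sensing. It measured 163, 176 and 183 CPM in myoblasts and 334, 354 and 422 CPM in myotubes, a log2 change of 1.09 (SE 0.09, adjusted p = 7.40e-06). Sars, the seryl-tRNA synthetase (Entrez gene 20226, GRCm38 chromosome 3, 108424864 to 108445259), had 235, 233 and 219 CPM in myoblasts and 457, 460 and 522 CPM in myotubes, a log2 change of 1.07 (SE 0.05). For both genes every myotube library lay above every myoblast library by a wide margin.

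Nars, which charges asparagine tRNA, had 294, 292 and 306 CPM in myoblasts and 542, 560 and 631 CPM in myotubes, a log2 change of 0.96 (SE 0.05, adjusted p = 6.71e-16). Eprs, the fused enzyme that charges glutamate and proline tRNAs, had 325, 317 and 318 CPM in myoblasts and 592, 614 and 641 CPM in myotubes, a 1.92-fold rise (SE 0.04 on the log2 scale). The Eprs myoblast libraries differed by only a few CPM, far less than the distance between the groups. The other 10 cytosolic genes that rose were Farsb (0.79), Mars (0.67), Rars (0.64), Aars (0.60), Iars (0.59), Tars (0.57), Dars (0.56), Yars (0.53), Cars (0.50) and Wars (0.44), given as log2 changes. None of their myotube values overlapped the myoblast values. The Wars myotube libraries were the widest apart of these relative to their mean, at 133, 140 and 172 CPM against 110, 111 and 108 CPM in myoblasts.

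Vars, the valyl-tRNA synthetase, went the other way. Its levels were 264, 274 and 245 CPM in myoblasts and 150, 160 and 160 CPM in myotubes, a fall to 60.1% of the myoblast level (log2 change −0.74, SE 0.05, adjusted p = 1.59e-13). The gene (Entrez 22321) lies on GRCm38 chromosome 17 at 35000907 to 35016329. Vars binds the eukaryotic elongation factor 1 complex, which delivers charged tRNAs to the ribosome. Of that complex Eef1d fell by 0.39 and Eef1g by 0.22 on the log2 scale, while Eef1b2 rose by 0.19 and Eef1a1, named after its values were seen, by 0.09. With total-count scaling Eef1b2 and Eef1a1 lost their calls in edgeR, with log2 changes of 0.05 and −0.06, and Eef1a1 also lost it without myoblast library 1 (adjusted p = 0.139).

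Smaller decreases were seen for Hars and Farsa. Hars, the histidyl-tRNA synthetase, had 97.4, 95.8 and 102 CPM in myoblasts and 80.1, 83.1 and 91.2 CPM in myotubes (log2 change −0.21, SE 0.05, adjusted p = 0.00116). Farsa, the alpha subunit of phenylalanyl-tRNA synthetase, had 111, 113 and 115 CPM in myoblasts and 108, 98.8 and 99.5 CPM in myotubes (log2 change −0.15, SE 0.05, adjusted p = 0.00808). For either gene each myotube library was below each myoblast library, by a narrow gap.

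Farsa and Farsb encode the alpha and beta subunits of the same enzyme, and they moved in opposite directions. Farsb had 86.5, 83.0 and 82.5 CPM in myoblasts and 143, 141 and 151 CPM in myotubes. The log2 ratio of Farsb to Farsa was −0.35, −0.45 and −0.47 in the myoblast group and 0.40, 0.51 and 0.60 in the myotube group, a change of 0.93 (exact two-sided permutation p = 0.1, the smallest that 3 against 3 libraries allow). This ratio was chosen after the values were seen. It is a ratio of CPM, not corrected for the lengths of the transcripts. Of Farsb exons, 11.3% overlap the opposite-strand gene Sgpp2.

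The 2 cytosolic genes not called were Qars and Tarsl2. Qars, the glutaminyl-tRNA synthetase, had 129, 137 and 132 CPM in myoblasts and 148, 128 and 134 CPM in myotubes (log2 change 0.04, SE 0.05, adjusted p = 0.451). Tarsl2 had 26.1, 23.3 and 25.9 CPM in myoblasts and 27.3, 25.7 and 23.9 CPM in myotubes (log2 change 0.03, SE 0.09, adjusted p = 0.752). The groups overlapped for both genes. Tars, the main cytosolic threonyl-tRNA synthetase, was by contrast at 209, 209 and 207 CPM in myoblasts and 309, 288 and 327 CPM in myotubes.

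Gars and Kars serve both compartments. Gars, the glycyl-tRNA synthetase, had 299, 294 and 286 CPM in myoblasts and 445, 447 and 488 CPM in myotubes (log2 change 0.65, SE 0.04, adjusted p = 1.79e-13). Kars, the lysyl-tRNA synthetase, had 177, 176 and 176 CPM in myoblasts and 207, 201 and 222 CPM in myotubes (log2 change 0.25, SE 0.04, adjusted p = 8.46e-06). Counts per gene do not separate the cytosolic from the mitochondrial form of either enzyme.

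Among mitochondrial enzymes the increase of Nars2, the mitochondrial asparaginyl-tRNA synthetase, was the largest of all 38 members. Nars2 (Entrez 244141, GRCm38 chromosome 7, 96950839 to 97064758) had 10.2, 9.51 and 8.76 CPM in myoblasts and 27.5, 28.6 and 35.2 CPM in myotubes. This was a 3.21-fold rise (log2 change 1.68, SE 0.11, adjusted p = 4.59e-13), with all myotube libraries far above the myoblast range. Of the 50-base windows of its longest coding transcript, 6.3% also occur in the transcript C230038L03Rik.

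Fars2, the single-chain mitochondrial phenylalanyl-tRNA synthetase, had 12.4, 14.1 and 11.9 CPM in myoblasts and 28.7, 21.4 and 25.8 CPM in myotubes (log2 change 0.97, SE 0.11, adjusted p = 1.63e-08). Mars2, which charges methionine tRNA, had 11.9, 11.1 and 12.2 CPM in myoblasts and 16.8, 21.4 and 22.0 CPM in myotubes (log2 change 0.79, SE 0.11, adjusted p = 8.04e-07). The rises of Nars2, Fars2 and Mars2 held in each of the 13 alternative fits. Rars2, for arginine, had 25.4, 21.6 and 29.2 CPM in myoblasts and 30.4, 32.1 and 34.0 CPM in myotubes (log2 change 0.35, SE 0.09, adjusted p = 0.00173). The Rars2 groups lay close to each other, and the log2 changes of Ears2 (0.32) and Tars2 (0.15) were smaller still. Ears2 lost its call in edgeR if myoblast library 1 (adjusted p = 0.0651), myoblast library 2 (0.118) or myotube library 2 (0.0940) was left out. Tars2 lost its call in edgeR if any library but myotube library 2 was left out (adjusted p from 0.0503 to 0.242).

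Sars2, the mitochondrial seryl-tRNA synthetase, had the steepest decrease. It had 10.9, 12.9 and 12.2 CPM in myoblasts and 3.71, 6.50 and 4.67 CPM in myotubes, a fall to 41.5% of the myoblast level (log2 change −1.27, SE 0.16, adjusted p = 1.33e-07). The myotube values rest on 26 to 48 counts per library, the fewest of any member. Cars2, for cysteine, had 17.7, 16.8 and 15.8 CPM in myoblasts and 7.85, 9.20 and 7.83 CPM in myotubes (log2 change −1.02, SE 0.12, adjusted p = 3.43e-08). For both genes all myotube libraries lay below all myoblast libraries. Of the Cars2 windows 17.8% also occur in transcripts of Naxd.

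Hars2, for histidine, had 36.7, 33.3 and 31.7 CPM in myoblasts and 21.5, 22.7 and 23.1 CPM in myotubes (log2 change −0.59, SE 0.08, adjusted p = 6.42e-07). Vars2, for valine, had 31.5, 32.8 and 28.9 CPM in myoblasts and 21.7, 23.8 and 24.9 CPM in myotubes (log2 change −0.40, SE 0.09, adjusted p = 0.000135). Neither gene had overlapping groups. Wars2, Aars2 and Iars2 fell by 0.32, 0.29 and 0.26 on the log2 scale.

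The mitochondrial members not called were Yars2 (log2 change 0.00, SE 0.09), Pars2 (−0.02, SE 0.16) and Lars2 (−0.04, SE 0.24). Lars2, the mitochondrial leucyl-tRNA synthetase, varied most between replicates. It had 79.5, 92.3 and 136 CPM in myoblasts and 106, 100 and 92.2 CPM in myotubes, so the groups overlapped. Without myoblast library 3 the log2 change of Lars2 was 0.21 (adjusted p = 0.00942 by edgeR), so this library decides its value. Pars2, which charges proline tRNA, had 6.92, 7.07 and 7.54 CPM in myoblasts and 8.71, 5.96 and 6.69 CPM in myotubes.

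**Figure D2:**
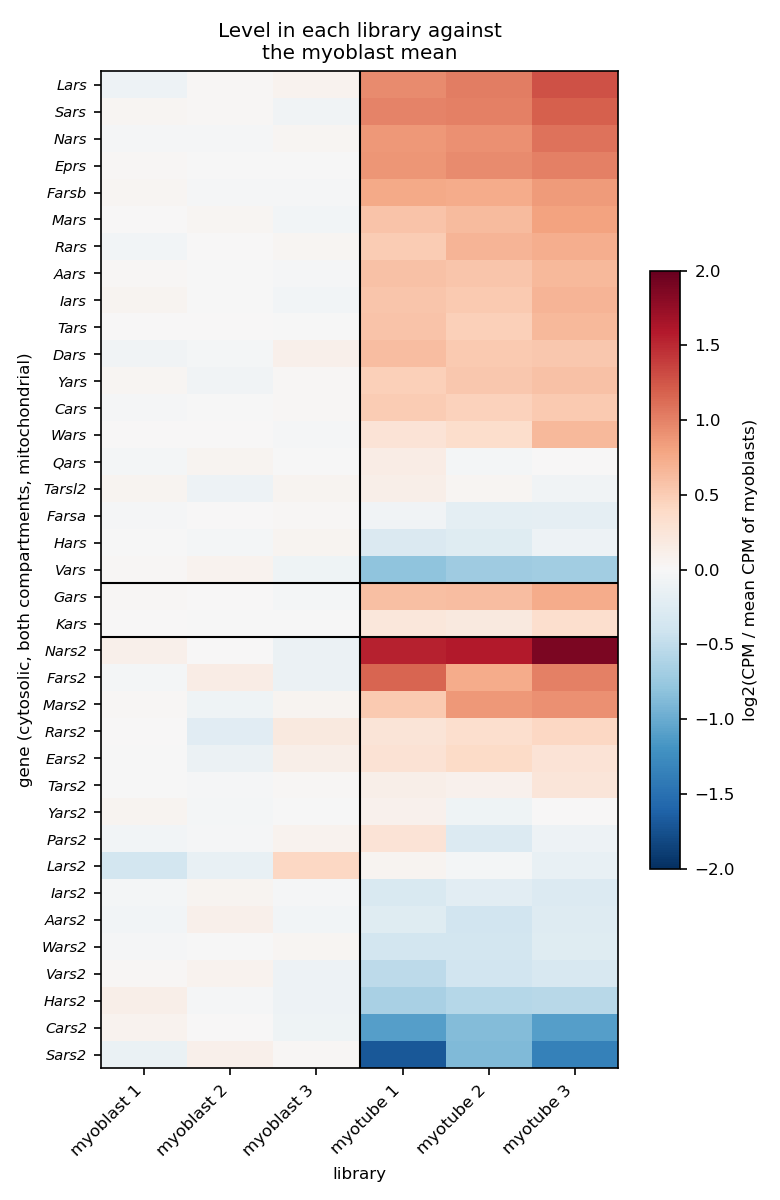
Level of 37 synthetase genes in each of the 6 libraries, as the log2 ratio of its CPM to its mean in the myoblasts (red higher, blue lower). Myotube library 3 has the strongest red for most cytosolic genes, and Lars2 shows the unequal myoblast libraries (79.5, 92.3 and 136 CPM).

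Summed over their members, cytosolic synthetase transcripts were more abundant in myotubes and mitochondrial ones were at a similar level. The cytosolic sum was 3279, 3283 and 3270 CPM in myoblasts and 4819, 4867 and 5313 CPM in myotubes, 1.53 times as high. The mitochondrial sum was 497, 513 and 550 CPM in myoblasts and 505, 504 and 509 CPM in myotubes, so the groups overlapped. The ratio of the sums, which does not depend on library scaling, averaged 6.32 ± 0.332 for myoblasts and 9.87 ± 0.486 for myotubes (SD, n = 3). Without Lars2, an alternative chosen after its spread was seen, the ratio was 7.86 ± 0.0541 and 12.3 ± 0.386.

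To compare the compartments within an amino acid, each cytosolic gene was set against the mitochondrial gene of the same amino acid, as a log2 ratio of CPM + 0.5 in each library. Of the 18 ratios, 13 were higher in every myotube library than in any myoblast library, 3 were lower and 2 overlapped. Among single genes tested 80.5% were separate in this way, 40.6% higher and 39.9% lower. The share over ratios of other genes was not computed. Eprs and Fars2 each enter 2 ratios, so the 18 are not independent. The median change of the ratio was 0.58. Exact two-sided permutation tests gave p = 0.1 for each of the 16 ratios without overlap, the smallest p that this design allows, and 0.113 after Benjamini-Hochberg adjustment over 18. No ratio could therefore pass 0.05.

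For serine the ratio of Sars to Sars2 went from 4.37, 4.12 and 4.12 to 6.76, 6.04 and 6.66, a change of 2.29 in log2 units or 4.87-fold. For cysteine the ratio of Cars to Cars2 went from 2.46, 2.54 and 2.67 to 4.12, 3.85 and 4.14. Cars itself had 99.8, 101 and 103 CPM in myoblasts and 144, 139 and 146 CPM in myotubes. In both amino acids the cytosolic gene rose while the mitochondrial gene fell, as also, among others, for alanine, isoleucine and tryptophan. The Lars to Lars2 ratio changed by 1.09, with myoblast values of 1.03, 0.93 and 0.42 that carry the spread of Lars2.

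Phenylalanine, asparagine and valine had a lower ratio in myotubes. The Farsa to Fars2 ratio went from 3.11, 2.96 and 3.22 to 1.89, 2.18 and 1.93, a change of −1.10, with the cytosolic gene lower and the mitochondrial gene higher. With Farsb in place of Farsa the ratio changed by −0.17 and the groups overlapped (exact permutation p = 0.3). The Nars to Nars2 ratio changed by −0.67, since Nars2 rose more than Nars, and the Vars to Vars2 ratio by −0.34, since Vars fell more than Vars2. Histidine and valine were the amino acids for which both genes fell. Mars and Mars2 both rose, and their ratio changed by −0.08 with overlapping groups (exact permutation p = 0.5).

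**Figure D3:**
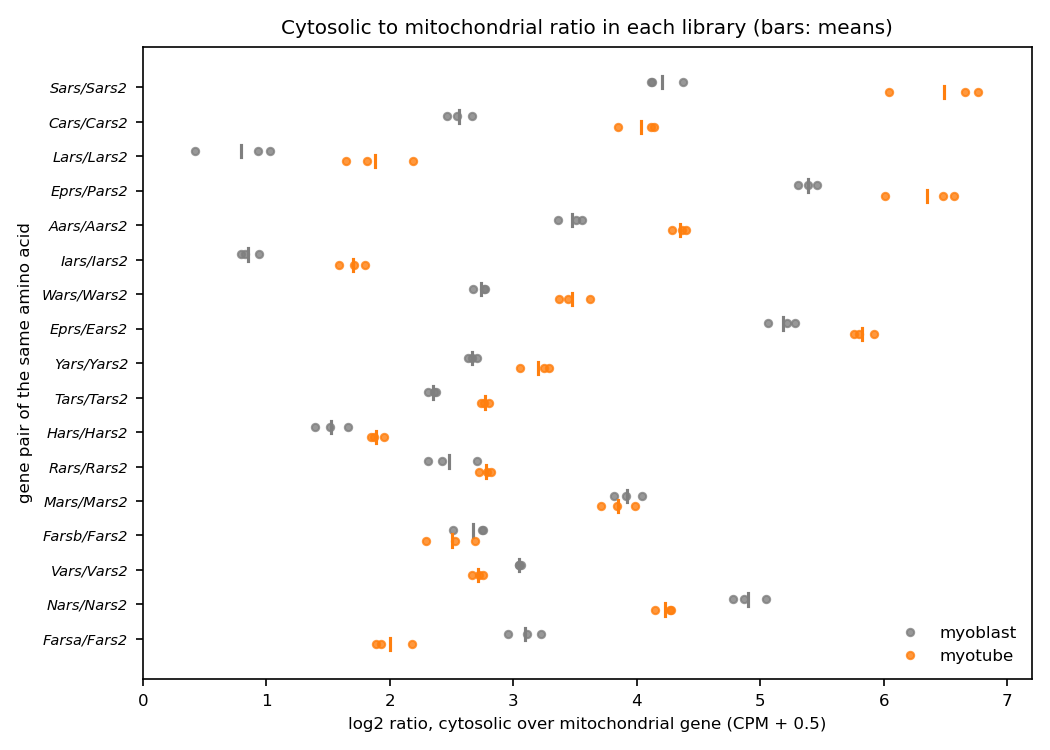
Log2 ratio of the cytosolic to the mitochondrial gene of the same amino acid, from CPM + 0.5, with 1 point for each library and bars at the group means. The orange myotube points lie right of the grey myoblast points for 12 of the 17 ratios drawn and left of them for Farsa/Fars2, Nars/Nars2 and Vars/Vars2.

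Levels of different genes were compared per kilobase of exon. In myoblasts the cytosolic genes ranged from 7.85 CPM per kb for Tarsl2 to 102 for Nars, with a median of 52.0, and the mitochondrial genes from 1.04 for Mars2 to 26.4 for Lars2, with a median of 7.02. In myotubes the medians were 69.7 and 6.50 CPM per kb. Apart from Tarsl2, the mean of each cytosolic gene was above that of each mitochondrial gene in both groups, although Lars2 in myoblast library 3 (35.0 CPM per kb) was above Cars. The GENCODE exon of Mars2 has 11294 bases, longer than the gene's RefSeq span (chromosome 1, 55237177 to 55240058), so its level per kb would be higher with the RefSeq span and its place in the order rests on the GENCODE length.

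Gars was the most abundant member in myoblasts at 123 ± 2.70 CPM per kb, above Nars at 102 ± 2.68 (SD, n = 3). In myotubes Nars, at 197 ± 16.0, and Gars, at 193 ± 10.1, did not differ beyond their spread. Sars moved from rank 8 to rank 3 of the 38 and Lars from rank 17 to rank 9 in level per kb. Vars moved from rank 7 to rank 20. Nars2 moved from rank 37 to rank 28, still at only 7.34 ± 1.01 CPM per kb in myotubes.

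**Figure D4:**
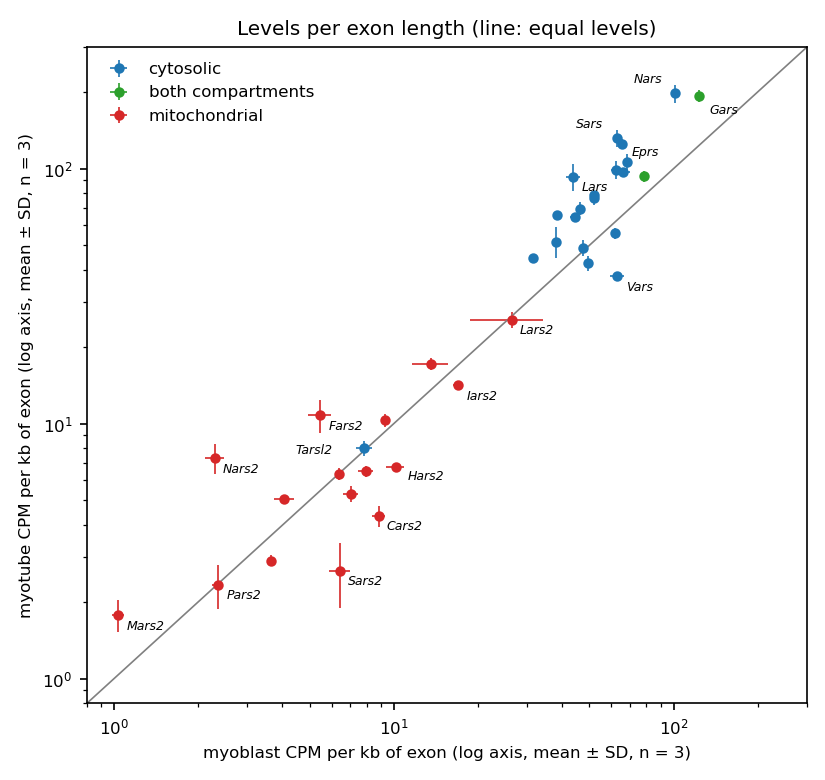
Level of 37 synthetase genes per kilobase of exon in myoblasts (horizontal) and myotubes (vertical), both on log axes, as mean ± SD of 3 libraries, with the line of equal levels. Cytosolic genes other than Tarsl2 fill the upper part, between 31.4 and 102 CPM per kb in myoblasts, and mitochondrial genes the lower part.

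The multi-synthetase complex joins Dars, Eprs, Iars, Kars, Lars, Mars, Qars and Rars. Of these 8 genes 7 rose and Qars was not called, with a median log2 change of 0.62, beside 40.2% higher and 39.2% lower among all genes tested. Outside the complex 9 of the 13 cytosolic or shared genes rose and 3 fell (median 0.53). The scaffold genes rose as well. Aimp1 had 41.7, 43.0 and 46.4 CPM in myoblasts and 76.9, 83.0 and 80.5 CPM in myotubes (log2 change 0.88, SE 0.06). Aimp2 had 48.3, 50.7 and 42.9 CPM in myoblasts and 87.8, 73.9 and 81.5 CPM in myotubes (log2 change 0.77, SE 0.07). The scaffold gene Eef1e1 had 32.8, 34.7 and 31.1 CPM in myoblasts and 34.7, 35.7 and 42.4 CPM in myotubes, a log2 change of 0.20 (adjusted p = 0.0286 by edgeR). Its groups just overlapped. It lost its call in edgeR with total-count scaling (adjusted p = 0.570), and if myotube library 3 (0.299), myoblast library 3 (0.112) or myoblast library 1 (0.0700) was left out.

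By fold of the catalytic domain the members form class I and class II, which approach the tRNA from opposite sides. Of the cytosolic and shared genes 7 of 9 in class I and 8 of 11 in class II rose, with medians of 0.53 and 0.57. Eprs holds a domain of each class and was left out of this count. Among mitochondrial genes 3 of 9 in class I (33.3%) and 3 of 8 in class II (37.5%) rose, shares near the 40.2% of all genes tested. No test between the classes was made.

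Of the 13 cytosolic or shared genes commonly listed as induced by ATF4, 12 rose and Vars fell, with a median log2 change of 0.60. Of the other 8 (Dars, Farsa, Farsb, Hars, Kars, Qars, Rars and Tarsl2), 4 rose and 2 fell (median 0.15). The background is again 40.2% of all genes higher. Atf4 itself had 248, 240 and 237 CPM in myoblasts and 385, 398 and 424 CPM in myotubes (log2 change 0.73, SE 0.04), and is named after its values were seen. In the list of ATF4 and its known targets other than synthetases, 26 of 30 genes rose, 2 fell and 2 were not called, with a median log2 change of 1.20. With total-count scaling 24 rose and 2 fell (median 1.055), where 4269 of all 12800 genes tested rose and 5935 fell. Without myotube library 3 also 24 rose and 2 fell (median 1.125). Stc2 and Slc7a1, whose groups overlapped, lost their calls in both and are named after their values were seen.

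Within that list the steepest rises were those of the lipoprotein receptor gene Vldlr (3.60), the pseudokinase gene Trib3 (3.28) and Cth, which makes cysteine from cystathionine (2.97). Cth varied between myotube libraries, at 22.8, 27.9 and 42.7 CPM, against 3.59, 3.74 and 4.71 CPM in myoblasts. Asns, the asparagine synthetase, which makes the amino acid that Nars and Nars2 load, had 123, 125 and 126 CPM in myoblasts and 347, 375 and 471 CPM in myotubes, and is named after its values were seen. The genes that fell were the amino acid transporters Slc7a11, by 0.44, and Slc38a2, by 0.33 on the log2 scale.

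Myotube library 3 was the highest of its group for 15 of 19 cytosolic synthetases, for Gars and Kars, and for 23 of the 26 stress response genes that rose. For all genes tested it was the highest for 34.8%, and for mitochondrial synthetases for 7 of 17. Without myotube library 3 the same counts of 14 cytosolic genes higher and 3 lower were found, with a median log2 change of 0.54. What sets this library apart was not tested.

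The recognition pattern of ATF4 and its C/EBP partners is TGATGNAA. It was searched on both strands from 250 bases before to 50 bases after the start given in the RefSeq promoter table of GRCm38.p6, which held 28 of the 38 members. For some members, such as Eprs, Aars2 and Tars2, that start lies inside the RefSeq span of the gene, and the outermost start was not searched. The pattern was found in the window of 4 of 12 cytosolic genes, in Gars but not Kars, and in 0 of 14 mitochondrial genes. It was found for 4.51% of all 27025 genes in the table and for 2.69% of the 9890 genes tested that are in it. Counted by window of that length, it occurred in 3.97% of all 32851 and in 2.24% of those of genes tested. For the stress response list it was found in 10 of 27 genes. The 5 genes that hold it (Aars, Gars, Iars, Tars and Yars) all rose, where 76.2% of the 21 cytosolic and shared genes rose. Of the cytosolic genes that fell, Farsa was searched and held no match, while Vars and Hars were not in the promoter table. Whether the pattern goes with direction was not tested. The sites are shown 5′ to 3′ along the gene with the pattern, or its reverse complement, in capitals. They are shown for 4 of the 5 genes. The stretches are short where they lie within an annotated transcript.
Iars, chr13:49682126-49682155, plus strand: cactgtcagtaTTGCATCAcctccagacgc
Yars, chr4:129189895-129189924, plus strand: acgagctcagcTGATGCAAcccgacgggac
Tars, chr15:11399659-11399738, minus strand: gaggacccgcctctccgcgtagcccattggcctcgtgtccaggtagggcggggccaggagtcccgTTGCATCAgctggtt
Gars, chr6:55037921-55038000, plus strand: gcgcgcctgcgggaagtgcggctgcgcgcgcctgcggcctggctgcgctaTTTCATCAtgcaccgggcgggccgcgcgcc

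In Iars, Tars and Yars the letters are TTGCATCA or its reverse complement TGATGCAA, and in Gars the variable base differs, giving TTTCATCA. The site begins 30 bases before the start in Gars and 15 before it in Tars, while in Iars and Yars it lies just after the start. The start used for Yars lies inside its RefSeq span, which begins at 129189734. Lars, Sars, Nars and Eprs had larger log2 changes (0.94 to 1.09) than these 5 genes (0.53 to 0.65). Eprs and Sars were in the promoter table and held no match in the window searched, which for Eprs lies inside its RefSeq span. Lars and Nars were among those not matched to the promoter table. A match is a description of letters and was not tested for binding.

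Partner genes of mitochondrial translation were examined beside the mitochondrial synthetases. Mitochondria have no glutaminyl-tRNA synthetase gene of their own. Ears2 loads glutamate, and the amidotransferase of Gatb, Gatc and Qrsl1 converts it to glutamine. Ears2 had 8.27, 7.64 and 9.04 CPM in myoblasts and 10.1, 10.8 and 10.1 CPM in myotubes. Gatb had 13.3, 15.4 and 14.7 CPM in myoblasts and 19.0, 23.7 and 21.5 CPM in myotubes (log2 change 0.56, SE 0.11). Qrsl1 rose by 0.42 (SE 0.10), while Gatc had a log2 change of −0.06 (adjusted p = 0.468 by edgeR). With total-count scaling 2 of the 3 amidotransferase genes were called higher and 1 lower, where 4269 of all 12800 genes tested rose and 5935 fell.

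Of 77 mitochondrial ribosomal protein genes tested, 41 rose and 14 fell (median log2 change 0.23), where 40.2% of all genes tested rose and 39.2% fell. With total-count scaling 32 rose and 22 fell (median 0.09), where 4269 of all 12800 genes tested rose and 5935 fell. The largest changes were rises of Mrps10 (1.04), Mrpl32 (0.97) and Mrps23 (0.89) and falls of Mrps6 (−1.46), Mrpl40 (−0.50) and Mrps2 (−0.46). Among mitochondrial translation factors 7 of 12 were called higher and 3 lower (median 0.38), beside the same 40.2% and 39.2% of all genes tested. They were led by the release factor Mtrf1 (2.85), Rmnd1 (1.02) and the initiation factor Mtif3 (0.94), while Mtrf1l (−0.32), Tsfm (−0.28) and Gfm1 (−0.12) fell. The Mtrf1 change (SE 0.30) rests on few counts, 7, 7 and 6 in myoblasts and 34, 35 and 27 in myotubes. Gfm1 and Mtrf1l lost their calls in the DESeq2 Wald test (adjusted p = 0.153 and 0.126). In edgeR Gfm1 also lost it if myoblast library 1 or 2 or myotube library 1 or 2 was left out (adjusted p from 0.0548 to 0.211). Mtrf1l lost it if myoblast library 1 or 3 or myotube library 1 or 3 was left out (adjusted p from 0.0621 to 0.118 in edgeR).

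The list of cytosolic elongation held 8 genes, 5 called higher and 3 lower (median 0.14, also with Eef1a2 at its bound), against 40.2% higher and 39.2% lower among all genes tested. With total-count scaling 2 were called higher and 3 lower and the median was −0.01, as Eef1a1, Eef1b2 and Eef2 (log2 change 0.04, adjusted p = 0.322 by edgeR) lost their calls. Under that scaling 4269 of all 12800 genes tested rose and 5935 fell. Eef1a2, the muscle and nerve form of the factor that carries charged tRNA, had 0 counts in the myoblast group and 5.28, 2.57 and 4.67 CPM in myotubes. It was at least 47.4-fold higher than the level of 3 counts over the myoblast group. The methyltransferase gene Eef1akmt1 rose by 0.79 and the elongation factor 2 kinase gene Eef2k fell by 0.76. Among 6 genes that clear mischarged tRNA or make selenocysteine tRNA, Prorsd1 rose by 1.15, Dtd2 by 0.49 and Dtd1 by 0.44, and Aarsd1 fell by 0.16. Dtd1 and Aarsd1 lost their calls in the DESeq2 Wald test (adjusted p = 0.0581 and 0.135). In edgeR Dtd1 also lost it with total-count scaling (log2 change 0.29, adjusted p = 0.0986) or if myoblast library 1 or 2 or myotube library 3 was left out (0.0502 to 0.0829), and Aarsd1 if myoblast library 1 or 3 or myotube library 1 or 3 was (0.0633 to 0.146).

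**Figure D5:**
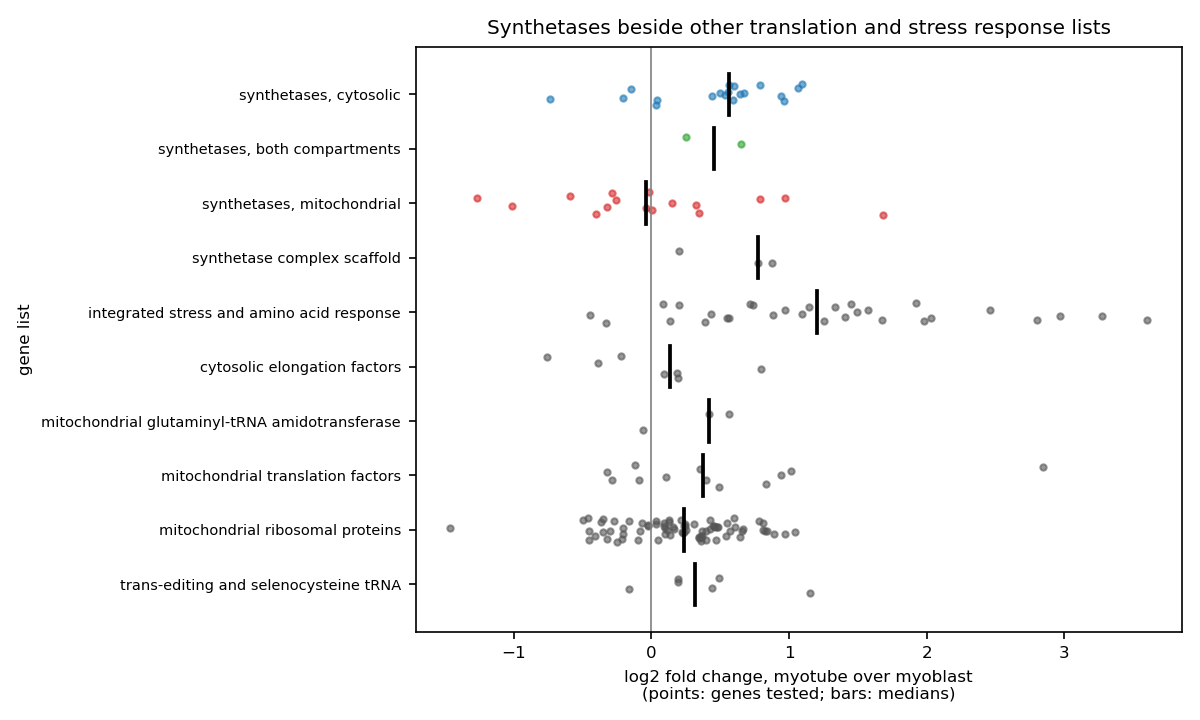
Log2 fold change, myotube over myoblast, of each tested gene in the synthetase classes and the other lists, with black bars at the medians (0.57 for cytosolic and −0.04 for mitochondrial synthetases, 1.20 for the stress response list). Eef1a2, with 0 counts in myoblasts, and 1 mitochondrial synthetase are not drawn.

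In GENCODE annotation 5 members share at least 10% of their sequence with another gene. Among them are Aars (23.1% of exon bases shared with the same-strand gene Exosc6), Farsb, Cars2 and Iars2 (32.2% opposite Rab3gap2 and 2010103J01Rik). Whether strand was used in counting is not stated in the labels. Aars and Exosc6 overlap on the same strand, where counting by strand would not tell them apart. The counts of the 5 are therefore uncertain. Without them 12 cytosolic members rose and 3 fell, and 6 mitochondrial members rose and 5 fell.

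Hars and Hars2 are head-to-head neighbours whose starts lie 197 bases apart and whose first parts overlap in GENCODE, and both fell. The overlap covers 9.8% of Hars exon bases and 5.8% of Hars2 exon bases. Whether counting kept the reads of the 2 strands apart there is not known. In all, 9 members start within 1000 bases of a protein-coding gene on the opposite strand, counting Hars and Hars2 each. For 6 of these the neighbour was called in the same direction, for 2 in the opposite direction, and for Sars2 the neighbour Mrps12 was not called (log2 change 0.05). The 6 include Hars and Hars2 as neighbours of each other. Among all genes tested 40.2% rose and 39.2% fell. The share over other neighbours of this kind was not computed, so the count is a description only. The neighbours that went the other way were Ubfd1, beside Ears2 (−0.38), and S100pbp, beside Yars (−0.35). Orc3, beside Rars2, rose by 0.57. These neighbours are named after their values were seen.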

How the data were processed

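RNA was taken up in TRIzol and sequenced as poly(A) libraries from a kit that keeps strand, per the labels' protocols. The deposited values are raw counts, which the authors gave for each gene in 6 library columns, and all value columns were used. The tools STAR, fastp and featureCounts and the build mm10 are named per the submitters' processing notes. Not given in the sources used here: tool versions, strand setting and the handling of multi-mapping reads. Genes with no symbol (1049) were identified by Entrez ID and stayed in the fit.

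Columns were matched to samples by name. Chi-square per degree of freedom between replicates ranged from 1.35 to 3.22, and none were identical. edgeR 4.0.16 in R 4.3.3 was used with filterByExpr (minimum count 10, total 15; 12800 genes), TMM and the robust quasi-likelihood F test without a block. P-values were adjusted by Benjamini-Hochberg at 0.05. The SE of a log2 change is its size over the root of the F statistic. On simulated counts for this comparison (12617 genes) 81.8% of changes of 0.5 and 93.0% of changes of 1 in log2 were recovered. There only 99 and 100 genes were changed, in both directions and with a fixed dispersion. In the data 79.5% of genes were called, so these rates do not give the power of the real fit. CPM are after TMM scaling. Counting limits cover counting error only.

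Coordinates and promoters are from RefSeq GRCm38.p6, the assembly mm10 names, and exon lengths, overlaps and 50-base windows from GENCODE M21 (basic set for lengths), in Python 3.11.15. Members, lists, motif and naming rule were chosen with earlier results of these data known. Values in every library are given for the 4 highest and 4 lowest changes in each class and the 3 most changed ratios in each direction; in other lists the 3 highest and 3 lowest called changes with a mean of at least 1 CPM are named. The planned comparison of protein identity was not made. The values of 1 mitochondrial member, counted in all totals, and 1 promoter sequence are not reported here. Alternatives were DESeq2 1.42.0 size factors and Wald test, total counts, limma-voom (limma 3.58.1), other filters, a replicate block, other offsets and leaving out each library.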

Additional observations from a re-analysis of the deposited data

How the results depend on the processing

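Under 13 alternative fits the 14 cytosolic rises, 3 cytosolic falls and the rises of Gars and Kars all kept their direction and call. Of the 8 mitochondrial falls 7 did, and of the 6 rises 3 did (Nars2, Fars2 and Mars2). With scaling by total counts 3 mitochondrial members rose and 8 fell, where 4269 of all 12800 genes tested rose and 5935 fell. Without members with at least 10% shared sequence, an alternative chosen after the data were seen, 5 mitochondrial members fell. The summed levels moved with total counts to log2 differences of 0.46 (cytosolic), 0.37 (both compartments) and −0.18 (mitochondrial). As means of log2(CPM + 1) the cytosolic difference was 0.47 and that of cytosolic over mitochondrial 0.47. Leaving out 1 library gave ranges of 0.563 to 0.634 for the cytosolic sum and −0.068 to 0.004 for the mitochondrial sum, positive without myoblast library 3, where Lars2 is highest. Genes not called changed sign: with total counts Qars was −0.105, Tarsl2 −0.115 and Yars2 −0.145, and with no filter −0.005, −0.016 and −0.046. Leaving out 1 library gave −0.016 to 0.084 for Qars, −0.024 to 0.081 for Tarsl2, −0.038 to 0.042 for Yars2, −0.178 to 0.093 for Pars2 and −0.195 to 0.208 for Lars2; the cause was not tested. No ratio between compartments within an amino acid changed sign with offsets of 0.05 or 2 CPM or with 1 library left out. Other scalings, filters and fits were not applied to these ratios. Replicate numbers are not said to mark a shared culture, and deviations of same-numbered libraries had correlations of −0.00179, 0.0105 and 0.000354. With the replicate block 5142 genes rose and 5019 fell, against 5146 and 5024 without it, and among the members Tars2 lost its call (adjusted p = 0.0552). Genes under about 50 counts per library, such as Sars2 in myotubes, are limited by depth.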
